A study of Mus musculus with 25 samples.

Results

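The genes described here are 43 endothelial genes of the mouse liver, taken by name from the 30524 genes listed in the deposited tables. All 43 were found in each of the 5 tables. The members fall into 17 sinusoidal genes and 26 general vessel genes. Of the sinusoidal genes, 12 encode surface receptors, enzymes and regulators of the liver sinusoid and 5 encode secreted ligands. The general vessel genes are a mixed class not particular to the sinusoid, and some, such as Vwf and Emcn, mark certain vessels only. The 43 members were chosen by name and role, with no measured value in the rule, but with earlier results of these data known. A filter on low values left 38 of them to be tested (16 sinusoidal and 22 general vessel genes) among 12741 genes. Wnt9b, Flt1, Emcn, Sox17 and Vwf fell below the filter and are given by level only.

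Liver RNA was sequenced from 25 mice labelled male, of C3H/HeJ, a strain prone to liver cancer. They entered the study at 5 weeks of age. The Untreated group (5 mice) received saline, and the DEN group (6 mice) received the liver carcinogen diethylnitrosamine at 25 mg/kg by intraperitoneal injection, 2 times a week for 3 weeks and then a week of rest, in 5 cycles over 4 months. After 1 month of rest, 3 weeks of gavage followed. DEN_CAF mice (5) had the carcinogen and then caffeine at 50 mg/kg 3 times a week, DEN_SOR mice (4) the carcinogen and then sorafenib at 30 mg/kg 2 times a week, and DEN_CAF_SOR mice (5) the carcinogen and then both drugs. Mice without a drug received the vehicles, which for sorafenib was corn oil with 2% DMSO. The labels plan 6 animals per group, give the tissue only as liver, and do not say whether a piece held a tumour nodule. Sorafenib is a kinase inhibitor whose targets include the VEGF receptors that endothelial cells carry.

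The sinusoids of the liver are lined by fenestrated endothelial cells that lack a usual basement membrane and take up waste molecules from blood through scavenger receptors such as Stab1, Stab2 and Mrc1. The same cells send signals to hepatocytes. Wnt2, Wnt9b and the Wnt amplifier Rspo3 maintain the gene programme of hepatocytes around the central vein, and Bmp2 and Bmp6 drive hepatocyte production of the iron hormone hepcidin. Gata4 is a transcription factor that keeps this sinusoidal identity. In chronic liver disease and liver cancer, sinusoidal endothelium is known to lose these features and to take on those of continuous capillaries, such as high Cd34 and a basement membrane of Col4a1 and Col4a2. General vessel genes include the junction protein Cdh5, the adhesion molecule Pecam1 and the VEGF receptor Kdr, which are shared by sinusoids and other vessels. Both sets of genes were followed mouse by mouse.

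The promoters of 4 members that the results below turn on are shown first: Tie1 and Stab2, which passed the test in 1 comparison, and Kdr and Clec4g, which were among the members that were lowest together in single mice. RefSeq windows were matched by symbol for 24 of the 43 members (28 windows, build GRCm38.p6, another build than the GRCm39 of the deposited tables). With 55.8% of the members matched, a motif count over the members as a set is void and none is given. Each line holds the 250 bases before the transcript start, 5′ to 3′ on the gene's strand, and capitals mark the letters AGGAAG, a core bound by ETS factors such as the members Erg and Fli1, on either strand.
Tie1, chr4:118489850-118490099, minus strand: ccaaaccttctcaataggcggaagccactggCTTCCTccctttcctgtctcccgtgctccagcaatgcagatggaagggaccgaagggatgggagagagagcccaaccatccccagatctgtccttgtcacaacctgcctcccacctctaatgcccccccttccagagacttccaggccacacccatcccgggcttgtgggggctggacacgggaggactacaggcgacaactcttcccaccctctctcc
Stab2, chr10:87007943-87008192, minus strand: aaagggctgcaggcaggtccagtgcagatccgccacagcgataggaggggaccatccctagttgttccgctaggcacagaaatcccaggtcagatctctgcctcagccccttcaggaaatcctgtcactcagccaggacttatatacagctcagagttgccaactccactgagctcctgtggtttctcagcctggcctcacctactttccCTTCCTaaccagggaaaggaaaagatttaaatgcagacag
Kdr, chr5:75978456-75978705, minus strand: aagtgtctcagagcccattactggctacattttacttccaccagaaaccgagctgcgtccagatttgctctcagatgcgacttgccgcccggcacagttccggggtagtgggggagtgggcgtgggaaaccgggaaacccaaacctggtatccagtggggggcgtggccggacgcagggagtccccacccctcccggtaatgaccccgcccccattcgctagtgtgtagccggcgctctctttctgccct
Clec4g, chr8:3720652-3720901, minus strand: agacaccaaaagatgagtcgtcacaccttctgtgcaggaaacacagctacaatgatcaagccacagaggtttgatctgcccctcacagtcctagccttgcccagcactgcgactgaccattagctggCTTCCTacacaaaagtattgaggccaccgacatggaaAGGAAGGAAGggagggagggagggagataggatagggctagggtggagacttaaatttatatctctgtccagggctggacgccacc
The printed stretch holds 1 match for Tie1, 1 for Stab2, 0 for Kdr and 3 for Clec4g, of which a pair overlap each other. Over all 32851 RefSeq windows of 300 bases, 35.4% hold AGGAAG on either strand, so its presence is common. The longer form CCGGAAG (8.86% of all windows, sharing its last letters GGAAG with the first motif) and the GATA form AGATAA (11.2%) had no match in the 300-base windows of these 4 genes.

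Levels are given as FPKM, reads scaled by gene length and by the library's assigned reads, computed from the reads that the deposited values hold. Library depth ran from 14750278 to 21992613 assigned reads. Xist, a transcript of female cells, had 22879, 29770 and 13370 reads in Untreated 3, 4 and 5 and at most 21 in each of the other 22 libraries, against the labelled male sex. Ddx3y, a gene of the Y chromosome, had 84, 30 and 48 reads in Untreated 3, 4 and 5. It had 132 reads in DEN 4 and 914 to 1689 in the remaining libraries. Libraries numbered 3 or 4 held 6.36 to 34.8% mitochondrial reads and the others 5.65 to 9.81%, although no label names a batch. The tested endothelial genes were higher in all 3 Xist libraries than in Untreated 1 and 2 for 33 of 38 members, against 26.6% of all genes tested, so each comparison with Untreated mice is given with and without these 3 libraries.

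Per length, the most abundant members over the 25 mice were the water channel Aqp1 (mean 20.2 FPKM), the lectin Clec4g (15.8 FPKM), the diaphragm protein Plvap (13.6 FPKM), the TGF-beta co-receptor Eng (13.0 FPKM) and the secreted factor Egfl7 (10.1 FPKM). Stab2 followed at 5.97 FPKM and Stab1 at 5.52 FPKM. The least abundant were Vwf (0.386 FPKM), the clotting factor carrier of large vessels, Wnt9b (0.408 FPKM) and Emcn (0.586 FPKM), a sialomucin of capillaries and veins. All 43 members had reads in every library, from a lowest count of 5 reads for Wnt2 in DEN 4 to 2211 reads for Stab1 in the same mouse. The defining sinusoidal markers Stab2, Clec4g and Lyve1 were thus present in all 25 livers, and of 5 lymphatic marker genes only Prox1, which hepatocytes also express, passed the filter. In bulk tissue, fewer endothelial cells and less RNA per endothelial cell cannot be told apart.

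**Figure D1:**
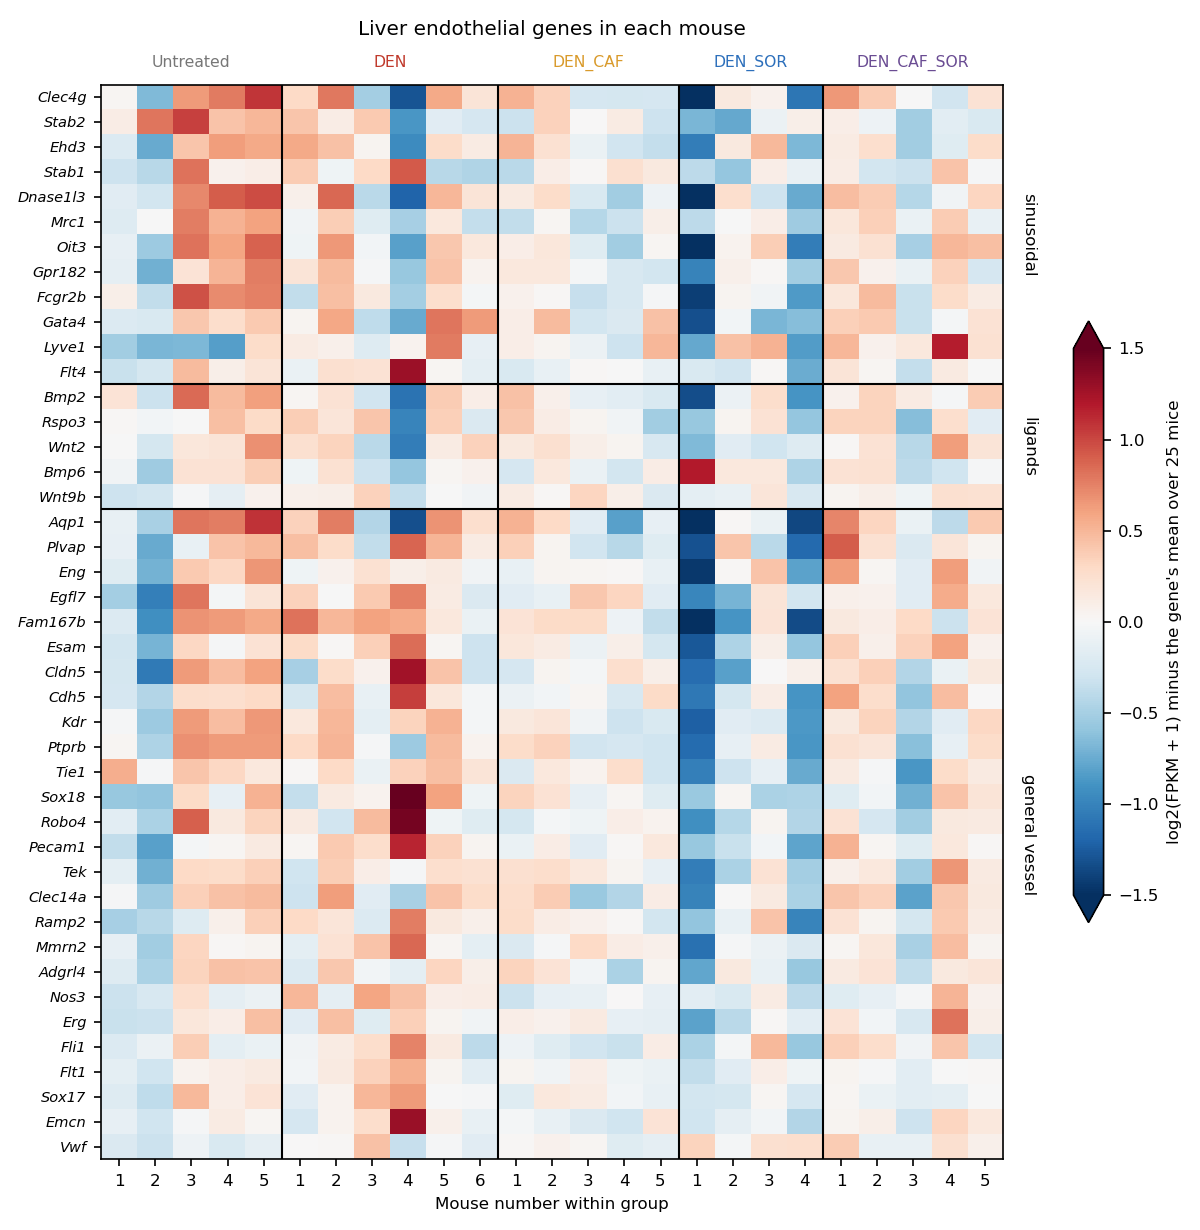
Colour gives log2(FPKM + 1) of each of the 43 genes (rows, by class and mean level) in each of the 25 mice (columns, by group), minus the gene's own mean over all mice. DEN_SOR 1 and DEN_SOR 4 are blue across both classes, Untreated 3 to 5 are red across most rows, and DEN 4 is red for general vessel genes and blue for most sinusoidal genes and ligands.

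Carcinogen treatment was compared with saline first. No member passed the test in DEN against Untreated mice (0 of 38 by limma at an adjusted p of 0.05), where 2.04% of all genes tested did. By edgeR 0 members passed, and by DESeq2 1, Pecam1, where these tools called 598 and 1040 of all 12741 genes. By limma at an unadjusted p of 0.05, 5 members passed, 2 of them lower, against 16.5% of all genes. The classes leaned apart: 12 of 16 sinusoidal members had a negative log2 fold change (median -0.19) and 15 of 22 general vessel members a positive one (median 0.15), where the median of all genes was 0.03.

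Stab2, the main hyaluronan scavenger receptor of the sinusoid, had 6.14, 10.6, 12.5, 7.91 and 8.39 FPKM in Untreated mice 1 to 5 and 7.86, 6.16, 7.69, 2.62, 4.87 and 4.59 FPKM in DEN mice 1 to 6. The ranges overlapped in 3 DEN mice, and DEN 4 to 6 lay below every Untreated mouse. Its log2 fold change was -0.64 ± 0.22 (SE, adjusted p = 0.13). Other sinusoidal genes with the smallest values were the ligand Bmp2 at -0.47 ± 0.26 (adjusted p = 0.388) and the inhibitory Fc receptor Fcgr2b at -0.44 ± 0.25 (adjusted p = 0.404), neither of them past the threshold.

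Lyve1, Pecam1 and Sox18 stood at the other end. Lyve1, a hyaluronan receptor of sinusoidal and lymphatic endothelium, had 0.915, 0.711, 0.728, 0.55 and 2.31 FPKM in Untreated mice and 1.99, 1.89, 1.39, 1.84, 3.73 and 1.52 FPKM in DEN mice. All 6 DEN mice lay above 4 of the 5 Untreated mice, and Untreated 5 lay within the DEN range (log2 fold change 0.60 ± 0.26, adjusted p = 0.249). Pecam1 had 1.21, 0.619, 1.79, 1.89 and 2.13 FPKM in Untreated and 1.89, 2.73, 2.42, 5.25, 2.6 and 1.92 FPKM in DEN mice, with overlap at about the highest Untreated values (0.58 ± 0.19, adjusted p = 0.116). Sox18, an endothelial transcription factor, had a log2 fold change of 0.42 ± 0.27 (adjusted p = 0.476), and one of 0.17 without DEN 4. Without the same mouse Bmp2 was at -0.28, and the class medians were -0.08 for sinusoidal and 0.04 for general vessel genes.

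This comparison moved with the Xist libraries and with the library numbers. Without Untreated 3 to 5, the median log2 fold change of the 38 members was 0.49 and 3 were negative, where the median of all genes moved to 0.12. With all 5 Untreated mice the median was 0.01 and 19 of 38 were negative. No member was called either way. Within libraries not numbered 3 or 4 the median was 0.23 (3 of 38 negative), and within libraries 3 and 4 it was -0.24 (23 of 38 negative, all genes -0.16). In libraries 3 and 4 Gata4 and Dnase1l3 were called, beside 540 of all 12741 genes. Untreated 3 and 4 both carry Xist reads, so library number and Xist cannot be told apart there.

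A score per mouse makes the classes comparable: the mean log2(FPKM + 1) over the 17 sinusoidal members minus that over the 26 general vessel members. This gap was 0.35 ± 0.06 (SD, n = 5) in Untreated mice and 0.05 ± 0.45 (n = 6) in DEN mice. The 5 Untreated values ran from 0.28 to 0.41, and the DEN values were 0.30, 0.32, 0.02, -0.84, 0.24 and 0.26 for mice 1 to 6. The wide DEN spread came with 1 mouse: without DEN 4 the mean was 0.23 ± 0.12 (n = 5). The gap of DEN minus Untreated was -0.30 with DEN 4 and -0.12 without it. DEN_CAF mice had 0.20 ± 0.06 (n = 5, from 0.15 to 0.27), DEN_CAF_SOR mice 0.22 ± 0.06 (n = 5, from 0.16 to 0.32) and DEN_SOR mice 0.26 ± 0.09 (n = 4, from 0.19 to 0.39). All DEN_CAF values thus lay below all Untreated values, those of the other carcinogen groups overlapped them, and no test was made of this score.

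**Figure D2:**
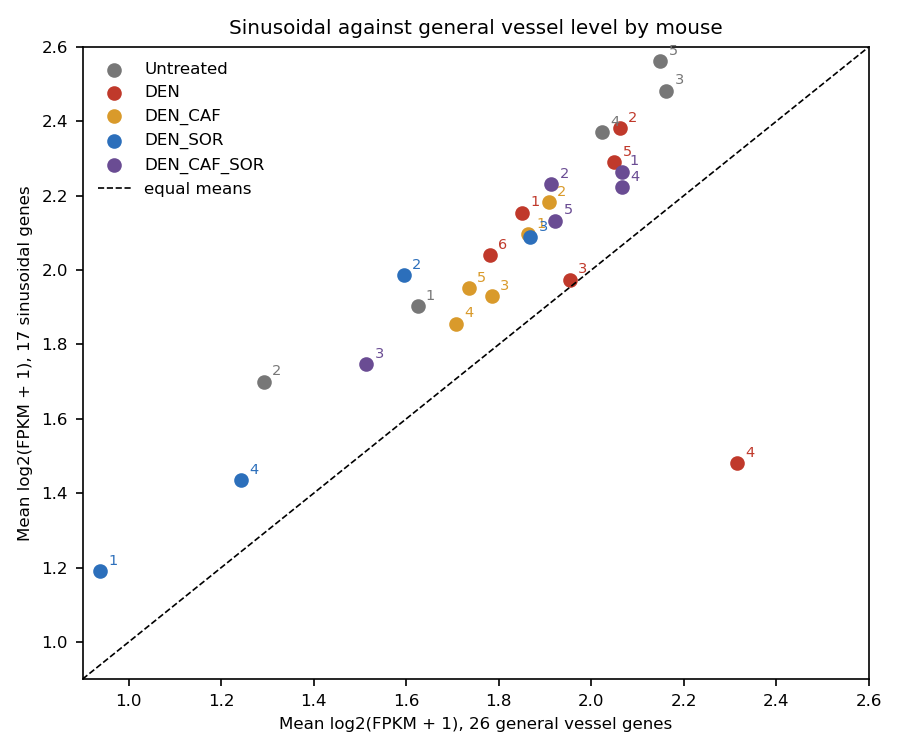
Each point is 1 mouse, numbered within its group; the x axis is the mean log2(FPKM + 1) of the 26 general vessel genes and the y axis that of the 17 sinusoidal genes, with a dashed line where the means are equal. In 24 of the 25 mice the points lie above the line with a gap between 0.02 and 0.41, and DEN 4 lies below it at -0.84.

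DEN 4 was the mouse in which the 2 classes stood apart. Among the general vessel genes, 14 of 26 were above every other DEN mouse and 4 below (Ptprb, Vwf, Clec14a and Aqp1). Among the sinusoidal genes, 14 of 17 were below every other DEN mouse, 2 above (Stab1 and Flt4), and Lyve1 lay within their range. Of the genes tested over the whole table, 21.6% were above and 29.1% below every other DEN mouse in this library, so DEN 4 stood apart widely, and the shares for tested members were 50% above and 13.6% below in general vessel genes against 12.5% above and 81.2% below in sinusoidal genes.

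The secreted ligands were low in this mouse. Wnt2 had 0.112 FPKM (5 reads) in DEN 4 against 1.53 ± 0.48 FPKM (SD, n = 5) in the other DEN mice, and Rspo3 had 0.23 FPKM (14 reads) against 1.88 ± 0.474 FPKM. Bmp2 had 1.04 FPKM against 3.71 ± 0.775, Bmp6 0.26 against 0.883 ± 0.254, and Wnt9b 0.0898 against 0.493 ± 0.165 FPKM. All 5 ligands were thus outside the range of the other DEN mice, on the low side, with ratios to their mean from 0.0737 for Wnt2 to 0.294 for Bmp6.

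Other sinusoidal genes were low to a similar degree. Clec4g had 5.17 FPKM in DEN 4 against 9.65 to 25.3 FPKM in the other DEN mice, and Dnase1l3, a secreted DNase, had 1.44 FPKM against 3.23 to 9.15 FPKM. Gata4 had 1.39 FPKM against 2.10 to 6.04 FPKM. The exceptions were Stab1 at 10.9 FPKM, above a range of 3.60 to 7.22 FPKM, and Flt4, the VEGF-C receptor, at 5.28 FPKM, above 1.34 to 2.06 FPKM. Stab1 and Stab2, which are paralogous scavenger receptors, therefore stood on opposite sides in this mouse.

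Among the general vessel genes, Emcn, Sox18, Robo4 and Cldn5 had the largest ratios to the mean of the other DEN mice. Sox18 had 8.89 FPKM in DEN 4 against 1.56 to 3.97 FPKM in the other DEN mice, the guidance receptor Robo4 7.51 against 1.59 to 3.38 FPKM, and the tight-junction protein Cldn5 8.56 against 1.83 to 4.39 FPKM. Emcn had 2.78 FPKM against 0.292 to 0.852 FPKM, and Cdh5 6.82 against 2.18 to 4.26 FPKM. Kdr (3.70 FPKM), Tie1 (3.26 FPKM), Tek (1.71 FPKM) and Eng (13.2 FPKM) lay within the range of the other DEN mice, so the high levels were not shared by all receptors of the class.

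**Figure D3:**
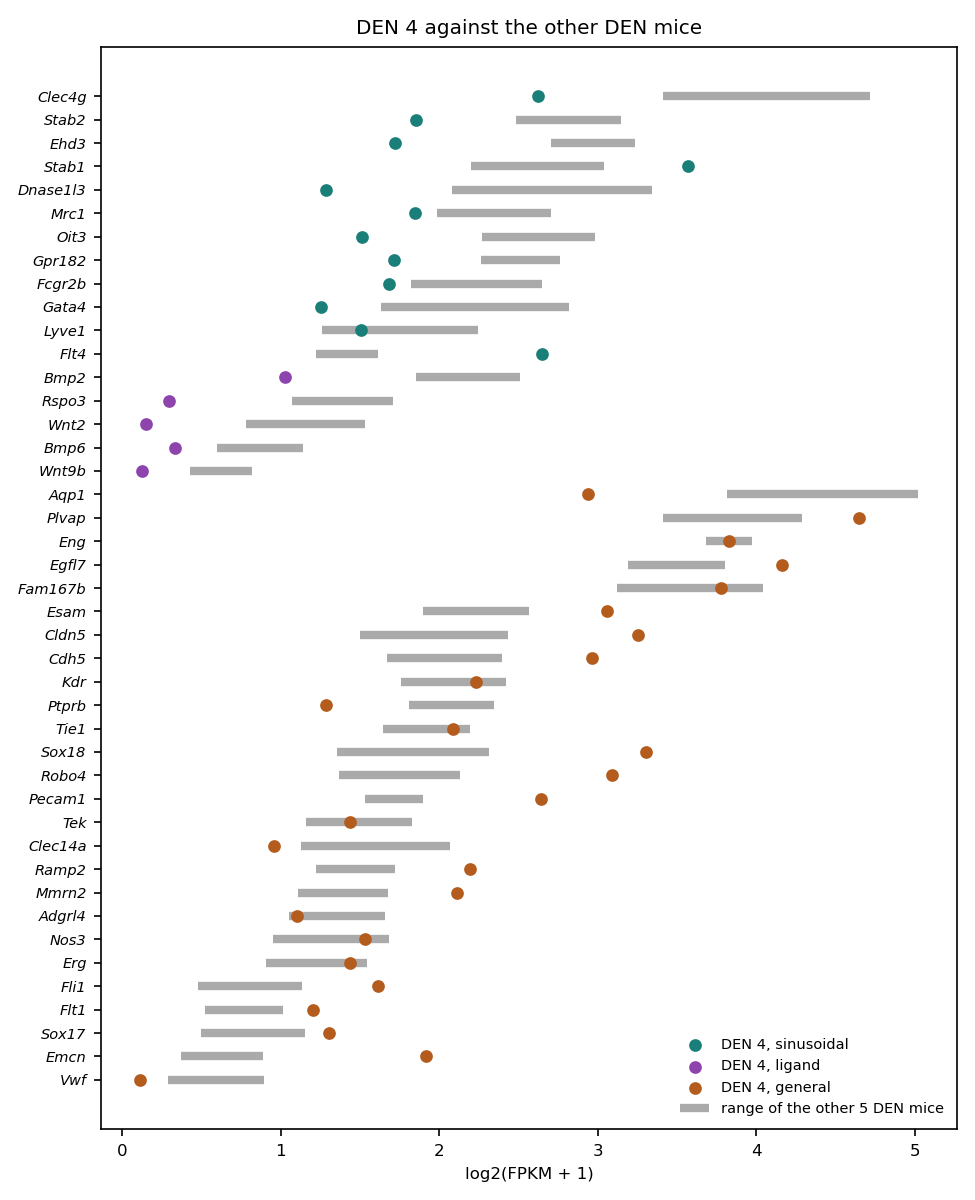
Points give log2(FPKM + 1) of each of the 43 genes in DEN 4, coloured by class, and grey bars the range of the other 5 DEN mice. Most sinusoidal genes and all 5 ligands lie left of their bars, and 14 general vessel genes lie right of them.

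Other lists moved in the same library. Afp, a fetal and tumour marker of hepatocytes, had 141 FPKM in DEN 4, and 32.1 FPKM in DEN 3 against 0.343 to 1.52 FPKM in the other 4 DEN mice. Most listed genes of remodelled vessels were high in DEN 4. Esm1, a tip-cell marker, had 12.5 FPKM against at most 1.34 FPKM in any other mouse. Cd34 had 3.11 FPKM against at most 1.35 FPKM, and Col4a1 14.4 FPKM against at most 6.70 FPKM. Ackr1, Selp and Ly6a of the vessel list lay below the other DEN mice. Vcam1, Sparcl1, Vwa1 and Sele lay within their range, and the remaining vessel genes above it. Most hepatocyte genes around the central vein that depend on Wnt signals were low. Glul, glutamine synthetase, was at 8.43 FPKM against 44.0 to 79.9 FPKM in the other DEN mice, and Axin2 at 0.12 against 1.30 to 2.92 FPKM. Slc1a4 of that list was above the other DEN mice, at 7.64 against 1.30 to 4.75 FPKM. Znrf3 lay within their range, and the remaining genes of the list below it. The stellate cell list (14 genes, with Dcn at 5.19 against 21.1 to 34.8 FPKM) had its lowest DEN level in this mouse. Its collagen genes went the other way. Col1a1 had 2.665 FPKM against 0.623 to 1.07 FPKM in the other DEN mice, and Col3a1 4.85 against 2.13 to 3.67 FPKM. Col1a2 was also above the other DEN mice, Reln, Des and Pdgfrb lay within their range, and the remaining stellate genes below it. Of the Kupffer cell markers Clec4f was low, at 6.81 FPKM against 23.1 to 41.2 FPKM, and Cd68 lay above the 3.35 to 5.91 FPKM of the other DEN mice, while the sum of the 14 genes, 119 FPKM, lay within the DEN range. Hepatocyte markers summed to 104680 FPKM against 32971 to 53026 FPKM in the other DEN mice, with albumin (Alb) at 58619 FPKM. The list was split: Apoa1, Serpina1a, Ahsg and Hpx were also above the other DEN mice, and Cps1 and Tat below them. Cps1 had 52.7 FPKM against 165 to 513 FPKM, and Tat 124 FPKM against 222 to 1097 FPKM. The remaining hepatocyte markers lay within the range of the other DEN mice. Ddx3y, a gene of the Y chromosome, had 132 reads against 1181 to 1604 in the other DEN mice, with 2 Xist reads. The mitochondrial share was 9.58%. The part of these in the endothelial values was not tested.

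Sorafenib was compared within the carcinogen-treated mice. No member passed the test in DEN_SOR against DEN mice by limma or by edgeR (0 of 38), where 0% of all genes did. DESeq2 called 2 members, Pecam1 and Fam167b, and 31 of all 12741 genes. By limma at an unadjusted p of 0.05, 20 members passed, all lower, which was 17 of 22 general vessel genes and 3 of 16 sinusoidal genes, against 6.19% of all genes. The log2 fold change was negative for 37 of 38 members, with a median of -0.67 over general vessel genes, -0.51 over the 12 sinusoidal receptors and regulators and -0.25 over the 4 tested ligands, beside -0.02 over all genes. The positive member was Bmp6. The contrast between the classes rested on DEN 4. Without that mouse 11 of 22 general vessel genes and 10 of 16 sinusoidal genes passed at an unadjusted p of 0.05, the medians were -0.54 and -0.51, and the difference in class gap went from 0.21 to 0.0348. Members share cells and mice and are not independent of each other, so these counts describe 1 shared movement.

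Kdr, the main VEGF receptor of endothelium and a sorafenib target, had 0.6, 2.32, 2.26 and 1.07 FPKM in DEN_SOR mice 1 to 4 and 3.18, 4.28, 2.38, 3.7, 4.35 and 2.65 FPKM in DEN mice. Every sorafenib mouse lay below every DEN mouse, closely for mice 2 and 3, and the log2 fold change was -0.83 ± 0.23 (adjusted p = 0.473). Pecam1 had 0.918, 1.26, 1.75 and 0.642 FPKM and lay below the DEN range of 1.89 to 5.25 FPKM in all 4 mice (-0.80 ± 0.20, adjusted p = 0.462). Tie1, a receptor of the angiopoietin system, had 0.647, 1.7, 2.07 and 0.979 FPKM against 2.13 to 3.57 FPKM in DEN mice. These 3 of the 38 tested members had no overlap between the groups in this direction, against 0.432% of all genes.

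The member with the smallest value was Fam167b, an endothelial gene of little known function, at -1.44 ± 0.33 (adjusted p = 0.252), with 1.3, 4.05, 9.77 and 2.69 FPKM in DEN_SOR and 7.69 to 15.5 FPKM in DEN mice. Plvap followed at -0.93 ± 0.30 (adjusted p = 0.61). Its levels were 4.56, 17.3, 9.37 and 5.08 FPKM, so mouse 2 lay within the DEN range of 9.63 to 24 FPKM and the other 3 below it. Cdh5 had -0.74 ± 0.26 (adjusted p = 0.704) and the angiopoietin receptor Tek -0.56 ± 0.23 (adjusted p = 0.773). Flt1, the decoy VEGF receptor, had 0.239 to 0.71 FPKM in DEN_SOR and 0.435 to 1.31 FPKM in DEN mice and was not tested.

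Sinusoidal genes were set against a DEN group in which DEN 4 was mostly the lowest mouse. Gata4 had 0.611, 2.91, 1.52 and 1.6 FPKM against 1.39 to 6.04 FPKM in DEN mice (-0.82 ± 0.28, adjusted p = 0.658), and Clec4g had 2.57, 15.8, 14.9 and 6.17 FPKM against 5.17 to 25.3 FPKM (-0.75 ± 0.42, adjusted p = 0.862). Both overlapped DEN mice in 3 of 4 animals, but for Gata4 in 1 and for Clec4g in 2 when DEN 4 is left out, and the log2 fold changes without it were -1.01 for both genes. Flt4 had -0.56 ± 0.22 (adjusted p = 0.738). Stab2 (-0.30 ± 0.23, adjusted p = 0.909), Lyve1 (-0.28 ± 0.28, adjusted p = 0.922) and the mannose receptor Mrc1 (-0.11 ± 0.20, adjusted p = 0.956) lay closer to 0. Among ligands, Bmp2 had -0.40 ± 0.28 (adjusted p = 0.908), Wnt2 -0.26 ± 0.24 (adjusted p = 0.916) and Rspo3 -0.24 ± 0.25 (adjusted p = 0.925).

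Bmp6 went the other way through 1 mouse. It had 3.29 FPKM in DEN_SOR 1, the highest value of all 25 mice, and 1.11, 1.1 and 0.365 FPKM in DEN_SOR 2 to 4, beside 0.26 to 1.21 FPKM in DEN mice (0.37 ± 0.24, adjusted p = 0.899). The same mouse had the lowest value of all 25 for 24 of the 38 tested members, a share of 63.2% against 3.52% of all genes tested. In DEN_SOR 4, 6 of 38 members were the lowest of all, against 18.5% of all genes, and 24 lay below every DEN mouse (63.2%, against 33.1% of all genes). DEN_SOR 2 and 3 had 14 and 5 such members, against 12.3% and 5.70% of all genes. DEN_SOR 1 had 32, including all 22 general vessel genes, against 11.1% of all genes. Against the 5 DEN mice other than DEN 4, the sinusoidal counts in DEN_SOR 1 to 4 were 14, 3, 1 and 13 of 16, and the general vessel counts 22, 13, 5 and 20 of 22.

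**Figure D4:**
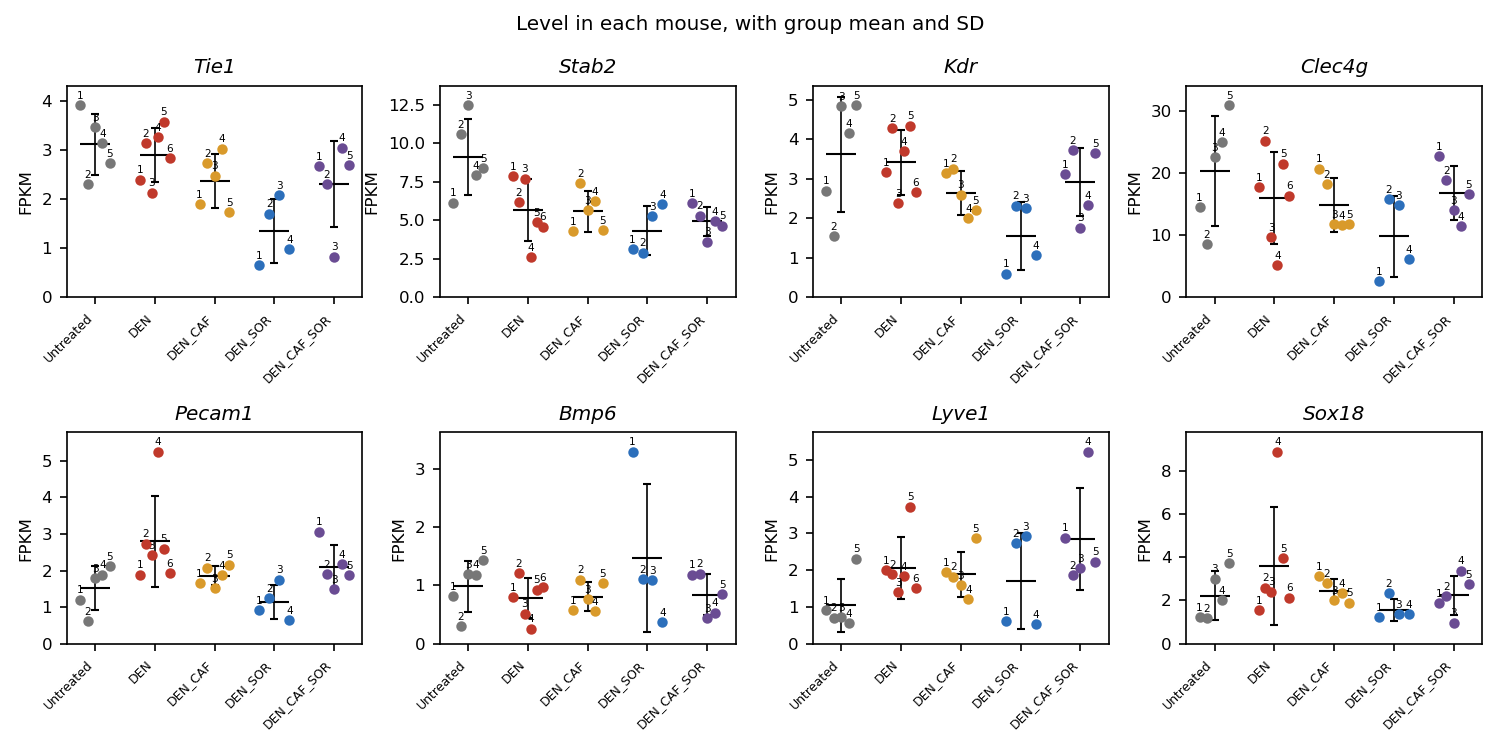
Points give FPKM in each mouse for 8 named members, numbered within group, with the group mean and SD as black bars. Kdr, Pecam1 and Tie1 lie lower in all 4 DEN_SOR mice than in any DEN mouse, Bmp6 is highest in DEN_SOR 1, and Sox18 and Pecam1 are highest in DEN 4.

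The sorafenib difference therefore rested most on DEN_SOR 1. Without it the median log2 fold change of the members against DEN was -0.31, and without DEN_SOR 4 it was -0.48, beside -0.56 with all mice. All 3 medians had 37 of 38 members negative. Within libraries not numbered 3 or 4 the median was -0.76 (37 of 38 negative), and within libraries 3 and 4, which include DEN 4, it was -0.25 (25 of 38 negative). Without DEN_SOR 3, Fam167b was called.

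Stellate cell markers were low in the same 2 mice. Their mean log2(FPKM + 1) over 14 genes was 1.39 in DEN_SOR 1 and 1.32 in DEN_SOR 4 against 2.40 and 2.6 in DEN_SOR 2 and 3, and the list summed to 33.7 to 134 FPKM in DEN_SOR, 37.4 to 137 FPKM in DEN and 65.1 to 155 FPKM in Untreated mice. Of its 13 tested genes, 11 were negative against DEN (median -0.30) and 0 were called by limma. Lum was at 0.0831 FPKM in DEN_SOR 4. Kupffer cell markers differed from this, with a mean of 3.29 in DEN_SOR 1, and with 10 of 12 tested genes positive against DEN and 0 called. That mean includes Marco, at 29.0 FPKM in DEN_SOR 1 against 1.17 to 2.98 FPKM in DEN_SOR 2 to 4. Clec4f, C1qa, C1qc and Cd163 were also higher in DEN_SOR 1 than in DEN_SOR 2. The remaining Kupffer genes, such as Cd5l and Vsig4, were lower in DEN_SOR 1 than in DEN_SOR 2. Hepatocyte markers had means of 10.4 in DEN_SOR 1 and 9.44 in DEN_SOR 4, whose mitochondrial shares were 7.43% and 34.8%. The part of these differences in the endothelial values was not tested.

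Against Untreated mice, 2 of 38 members passed the test in DEN_SOR mice (limma), both lower, where 2.62% of all genes did. At an unadjusted p of 0.05, 14 passed, all lower, against 18.6% of all genes. The groups did not overlap for the same 2 members, against 2.99% of all genes. Tie1 (ENSMUSG00000033191, chr4:118328388-118347258, minus strand, GRCm39) had 3.91, 2.3, 3.46, 3.14 and 2.73 FPKM in Untreated mice against the sorafenib values given above, and fell by 0.84 ± 0.21 on the log2 scale (adjusted p = 0.0335, limma). Stab2 (ENSMUSG00000035459, chr10:86677062-86843889, minus strand, GRCm39) had 3.13, 2.89, 5.26 and 6.04 FPKM in DEN_SOR mice, all below the lowest Untreated value of 6.14 FPKM. It fell by 0.94 ± 0.24 on the log2 scale (adjusted p = 0.0378, limma). These are the members whose promoters are printed first above.

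Both calls rested on single libraries. Without the 3 Xist libraries neither was called, although the log2 fold changes stayed near their size, at -0.82 for Tie1 and -0.82 for Stab2. The median of all 38 members moved from -0.49 to -0.06, beside 0.09 for all genes. No member was called without DEN_SOR 1, Untreated 3 or Untreated 4. Tie1 was also lost without Untreated 1 or DEN_SOR 4, and Stab2 without Untreated 2, Untreated 5, DEN_SOR 2 or DEN_SOR 3. The edgeR test on reads called Tie1, Fcgr2b and Kdr, and DESeq2 called 10 members, with Tie1 and Stab2 among them. Of all 12741 genes, edgeR called 527 and DESeq2 1195.

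Cholangiocyte markers moved in the same comparison: 4 of 5 tested genes rose (Spp1, Epcam, Krt19 and Krt7), with a median of 1.96, and the 7 genes listed summed to 18.7 to 190 FPKM in DEN_SOR against 6.82 to 13.2 FPKM in Untreated mice. Without the 3 Xist libraries none of the 4 was called, at log2 fold changes from 0.93 for Krt7 to 2.96 for Spp1. Their part in the endothelial values was not tested. The other named endothelial values of this comparison were not called. Aqp1 had -1.16 ± 0.42 (adjusted p = 0.127), Fam167b -1.16 ± 0.34 (adjusted p = 0.0647) and Clec4g -1.11 ± 0.43 (adjusted p = 0.159). At the other end stood Lyve1 at 0.32 ± 0.29 (adjusted p = 0.587), Bmp6 at 0.22 ± 0.25 (adjusted p = 0.675) and the endothelial nitric oxide synthase Nos3 at -0.06 ± 0.16 (adjusted p = 0.885). Lyve1 had 0.613, 2.74, 2.93 and 0.534 FPKM in DEN_SOR mice. Mice 2 and 3 thus lay above all Untreated mice, mouse 1 among them and mouse 4 just below all of them.

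**Figure D5:**
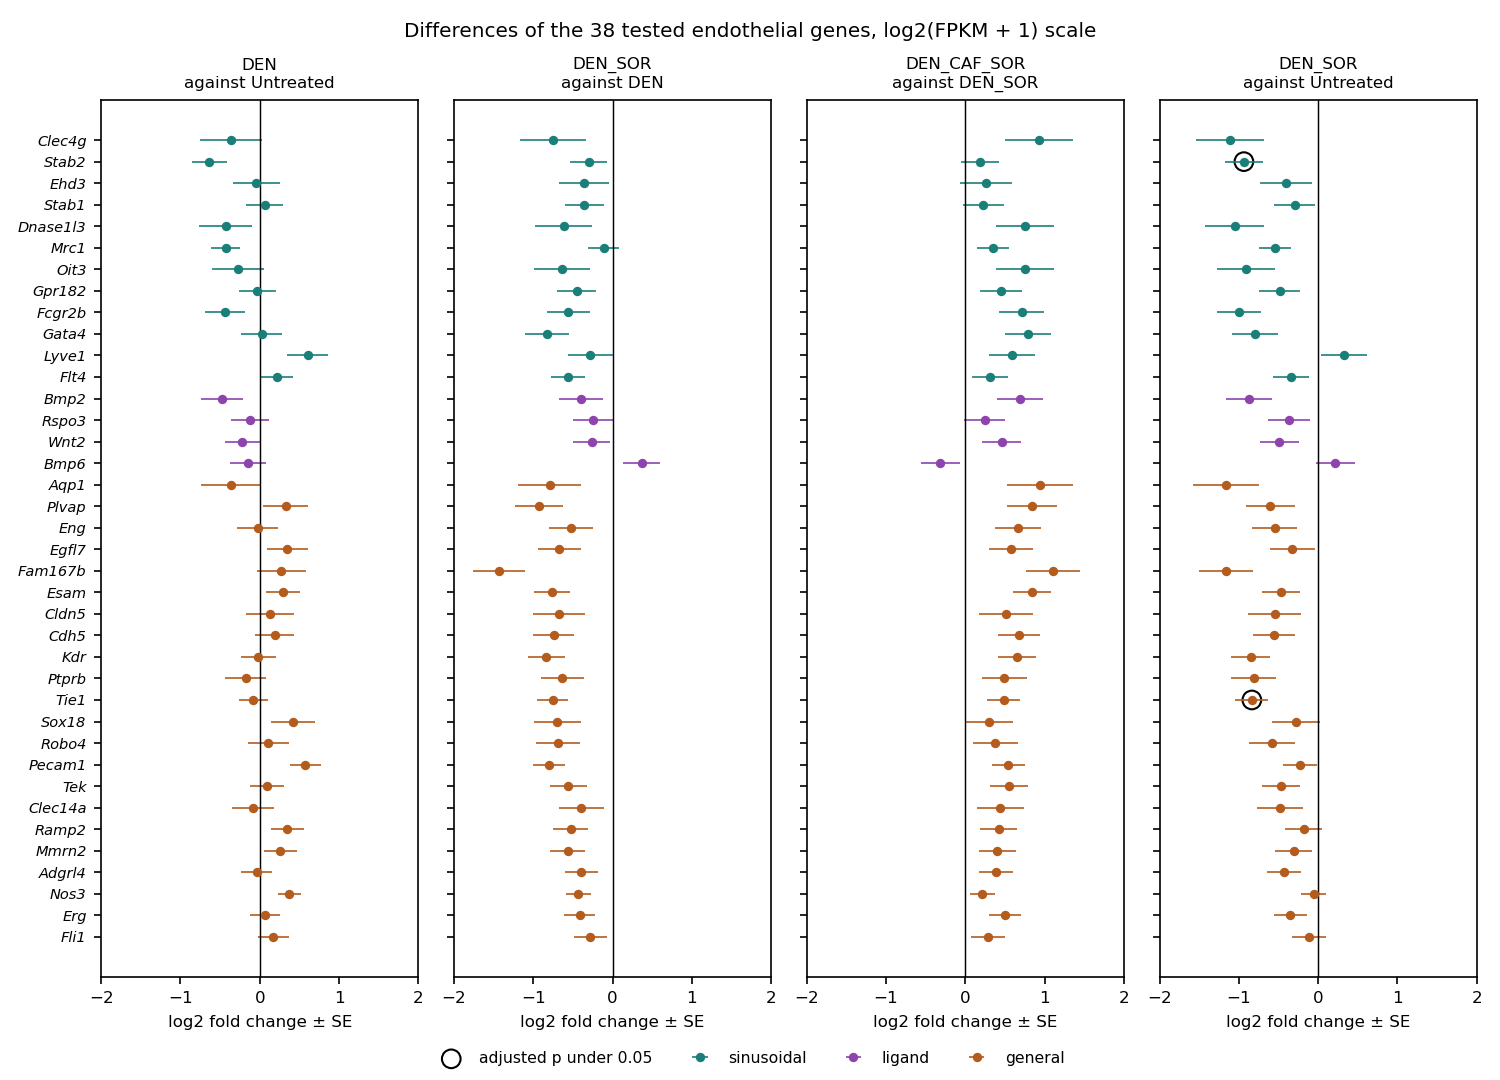
Points give the log2 fold change of each of the 38 tested members with its SE in 4 comparisons, coloured by class, and black circles mark an adjusted p under 0.05. In DEN_SOR against DEN 37 of 38 points lie below 0, in DEN_CAF_SOR against DEN_SOR 37 of 38 lie above 0, and circles appear for Tie1 and Stab2 in DEN_SOR against Untreated.

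Caffeine alone left the members near the DEN level. In DEN_CAF against DEN mice 0 of 38 passed by limma, edgeR and DESeq2, where 0.00785% of all genes passed by limma, and 1 passed at an unadjusted p of 0.05, against 2.81% of all genes. General vessel genes had a median log2 fold change of -0.19 with 21 of 22 negative, and sinusoidal genes one of -0.08 with 11 of 16 negative. Without DEN 4 the medians were -0.10 and -0.19, with 21 of 22 and 15 of 16 negative, so the order of the classes turned. The smallest values were Plvap at -0.41 ± 0.28, Nos3 at -0.40 ± 0.15 and Pecam1 at -0.36 ± 0.19, and the largest Wnt2 at 0.12 ± 0.22, Bmp2 at 0.11 ± 0.26 and Bmp6 at 0.04 ± 0.22, each with an adjusted p of 1. The 3 largest turned negative without DEN 4, to -0.07 for Wnt2, -0.09 for Bmp2 and -0.06 for Bmp6, and Pecam1 was then at -0.21. The mean over all members on the log2(FPKM + 1) scale was 1.88 ± 0.10 in DEN_CAF and 2.02 ± 0.12 in DEN mice, with a wider spread of 1.52 ± 0.41 in DEN_SOR and 1.98 ± 0.22 in DEN_CAF_SOR mice.

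Caffeine with sorafenib was set against sorafenib alone. In DEN_CAF_SOR against DEN_SOR mice 0 of 38 members passed by limma, edgeR and DESeq2, where 0% of all genes passed by limma. At an unadjusted p of 0.05, 16 passed, all higher, against 3.39% of all genes. The log2 fold change was positive for 37 of 38 members, with a median of 0.51 for general vessel genes and 0.45 for sinusoidal genes beside 0.03 for all genes. Fam167b had 1.1 ± 0.34, Aqp1 0.94 ± 0.42 and Clec4g 0.93 ± 0.43, and at the other end Nos3 had 0.21 ± 0.16, Stab2 0.18 ± 0.24 and Bmp6 -0.31 ± 0.25, each with an adjusted p of 1. Without DEN_SOR 1 the median over the members was 0.33, and within libraries 3 and 4 it was 0.32, beside 0.50 with all mice. The DEN_SOR mice enter this comparison and the one against DEN, so the opposite signs share those 4 libraries.

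Kdr had 3.13, 3.73, 1.76, 2.33 and 3.65 FPKM in DEN_CAF_SOR mice, Tie1 2.67, 2.3, 0.823, 3.05 and 2.69 FPKM and Stab2 6.11, 5.29, 3.6, 4.95 and 4.65 FPKM. DEN_CAF_SOR 3 was the lowest of the group for all 3 genes. All 5 mice lay within the DEN range for Stab2, 4 of 5 for Tie1 and 3 of 5 for Kdr. In that mouse 14 of 22 general vessel genes and 1 of 16 sinusoidal genes were below every DEN mouse, against 17.2% of all genes. The sinusoidal count depends on DEN 4 as the lowest DEN mouse: against the other 5 DEN mice it was 9 of 16, and the general vessel count stayed at 14 of 22.

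The remaining contrasts gave no call. In DEN_CAF_SOR against DEN mice 0 of 38 passed by limma, edgeR and DESeq2 (0% of all genes by limma) and 0 at an unadjusted p of 0.05 (2.72% of all genes), with log2 fold changes from -0.39 for Sox18, -0.33 for Fam167b and -0.31 for Robo4 to 0.31 for Lyve1, 0.29 for Bmp2 and 0.23 for Mrc1. Without DEN 4 these were -0.14 for Sox18, -0.0717 for Robo4 and 0.0926 for Bmp2. In DEN_CAF_SOR against DEN_CAF mice 0 passed by the 3 tools (0% by limma) and 0 at an unadjusted p of 0.05 (2.95%), from -0.15 for Stab2, -0.12 for Sox18 and -0.06 for Tie1 to 0.38 for Lyve1, 0.34 for Mrc1 and 0.32 for Plvap. The test of whether the sorafenib difference changes with caffeine called 0 members by the 3 tools (0% by limma), with 11 at an unadjusted p of 0.05, all positive, against 3.97% of all genes. Its values ran from -0.35 for Bmp6, 0.15 for Stab2 and 0.27 for Rspo3 to 1.04 for Aqp1, 1.25 for Plvap and 1.46 for Fam167b. A difference between the drug responses was thus not shown at an adjusted p of 0.05.

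Against Untreated mice the caffeine groups had 0 called members by limma, where 1.01% of all genes passed in DEN_CAF and 0.494% in DEN_CAF_SOR. At an unadjusted p of 0.05, 2 members passed in each, against 12.3% and 11.5% of all genes. Of all 12741 genes, edgeR called 218 in DEN_CAF and 166 in DEN_CAF_SOR, and DESeq2 called 461 and 395. In DEN_CAF, edgeR and DESeq2 each called Mrc1 (limma -0.54 ± 0.19, adjusted p = 0.212), and the other ends were Stab2 at -0.61 ± 0.23 and Fcgr2b at -0.53 ± 0.26, with Lyve1 at 0.53 ± 0.27, Pecam1 at 0.21 ± 0.20 and Ramp2, a co-receptor for adrenomedullin, at 0.17 ± 0.22. In DEN_CAF_SOR, edgeR called 0 and DESeq2 called Stab2 (limma -0.75 ± 0.23, adjusted p = 0.148) and Lyve1 (limma 0.91 ± 0.27, adjusted p = 0.148). The other ends there were Tie1 at -0.35 ± 0.20, the phosphatase Ptprb at -0.32 ± 0.26, the adhesion molecule Esam at 0.38 ± 0.22 and Pecam1 at 0.32 ± 0.20. Without the 3 Xist libraries the median over the members turned from -0.12 (30 of 38 negative) to 0.33 (4 negative, all genes 0.14) in DEN_CAF and from -0.04 (24 negative) to 0.39 (2 negative, all genes 0.11) in DEN_CAF_SOR, with 0 called by limma in both. With all libraries, Stab2 was negative and Lyve1 positive against Untreated mice in all 4 carcinogen groups, which share the 5 Untreated mice.

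The genes that these members signal to, or that accompany vessel remodelling, were followed through lists chosen by role. Of 17 tested hepatocyte genes that Wnt signals maintain around the central vein, 2 fell and 0 rose in DEN against Untreated mice, with a median log2 fold change of -0.90 beside 0.03 for all genes. Glul fell by 1.71 ± 0.39 on the log2 scale (adjusted p = 0.02, limma), and Tbx3, a transcription factor of the pathway, by 1.1 ± 0.29 (adjusted p = 0.0488, limma). Over the same comparison the tested Wnt ligand Wnt2 had 1.27, 0.894, 1.55, 1.61 and 2.67 FPKM in Untreated and 1.68, 1.86, 0.721, 0.112, 1.47 and 1.89 FPKM in DEN mice, and Rspo3 had 1.38 to 2.35 against 0.23 to 2.26 FPKM. Outside DEN 4, Wnt2 in DEN 3 and Rspo3 in DEN 6 lay below every Untreated mouse. The other values of both ligands lay within the Untreated range. Glul in the other 5 DEN mice, at 44.0 to 79.9 FPKM, lay below the Untreated range of 116 to 182 FPKM. Whether the ligand levels bear on the Glul level was not tested. In DEN_SOR against Untreated mice Tbx3 fell by 1.68 ± 0.32 (adjusted p = 0.00598, limma), and the 16 other genes tested were not called. Without the 3 Xist libraries none of these calls held, with Glul at -1.54 ± 0.55 (adjusted p = 0.254) and Tbx3 at -0.86 ± 0.41 (adjusted p = 0.401) in DEN mice and Tbx3 at -1.43 ± 0.44 (adjusted p = 0.173) in DEN_SOR mice.

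Of 10 genes that respond to BMP signals, 0 were called in DEN against Untreated mice by limma, with a median of -0.03. In DEN_SOR against Untreated mice Atoh8 rose by 1.01 ± 0.27 (adjusted p = 0.0436, limma) and Id2 fell by 1.29 ± 0.34 on the log2 scale (adjusted p = 0.0415, limma). Neither was called without the 3 Xist libraries, at 1.25 ± 0.35 for Atoh8 (adjusted p = 0.129, limma) and -1.21 ± 0.47 for Id2 (adjusted p = 0.288, limma). In DEN_CAF against Untreated mice Atoh8 rose by 1.48 ± 0.25 (adjusted p = 0.00263, limma), and this call held without those libraries at 1.73 ± 0.33 (adjusted p = 0.028, limma). Hamp, hepcidin, had 2259 FPKM in DEN_SOR 1, where Bmp6 was highest, and 1547 to 4227 FPKM in the other 3 mice of the group. Of 11 tested genes of remodelled vessels, 2 rose and 0 fell in DEN against Untreated mice, with a median of 0.94: Ly6a, which leukocytes also express, rose by 2.85 ± 0.74 (adjusted p = 0.0442, limma) and Ly6c1 by 1.14 ± 0.25 (adjusted p = 0.0144, limma). The list's summed level was 35.9 to 59.8 FPKM in Untreated and 123 to 580 FPKM in DEN mice, and DEN 4, with Ly6a at 17 FPKM within the Untreated range, had the lowest sum of the DEN mice but the highest mean log2(FPKM + 1) of the list in all 25 mice, 2.35 against 1.59 to 1.98 in the other DEN mice. Without the 3 Xist libraries neither gene was called, at 2.65 ± 1.07 for Ly6a (adjusted p = 0.31, limma) and 1.14 ± 0.35 for Ly6c1 (adjusted p = 0.182, limma). Of 15 tested ligands and co-receptors of endothelium 0 were called by limma in each of DEN against Untreated, DEN_SOR against DEN and DEN_SOR against Untreated. In DEN_SOR against DEN the largest changes were Angptl4 at 1.71 ± 0.65 (adjusted p = 0.738, limma) and S1pr1 at -0.69 ± 0.29 (adjusted p = 0.787, limma). Vegfa had 29.4 to 42.5 FPKM in DEN_SOR and 31.9 to 49.1 FPKM in DEN mice.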

How the data were processed

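RNA-seq values of 25 mouse livers in 5 groups came from 5 deposited tables with 1 column per mouse. Per the submitters' processing notes, HISAT2 2.0.5, featureCounts 1.5.0-p3 and GRCm39 (mm39) were used; neither the annotation release nor the strand setting is stated there, and reads of overlapping or antisense genes cannot be told apart. The deposited values are named FPKM but hold a signal, the read count divided by 1 size factor per library: each column had 1 step, of which its values came out as whole numbers in 100% of cases (tolerance 0.01 of a read). Those reads, the library total and the listed gene length gave the FPKM used here. The main test was limma 3.58.1 (R 4.3.3) on log2(FPKM + 1), so a fold change understates that of low genes, over all 25 libraries with 1 coefficient per group and a mean-dependent prior. Genes with FPKM of at least 1 in at least 4 libraries were tested (12741 genes, 20 residual degrees of freedom), with Benjamini-Hochberg adjustment at 0.05 in each of 10 comparisons. This log2 test is the one planned for the unit FPKM; edgeR 4.0.16 and DESeq2 1.42.0 on the recovered reads were alternatives. The limma fit was tested on simulated data. Tables and figures used Python 3.11.15, pandas 2.3.3 and matplotlib 3.10.9. The titles number the mice within a group; p-values measure the spread between these animals. No 2 libraries of a group agreed within sampling noise. Depth was 14750278 to 21992613 assigned reads, and reads without molecular identifiers are not independent molecules.

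The members and the lists of other genes were chosen with earlier results of these data known. Named were each member called in a comparison, 16 members fixed for their role, and the 3 largest and 3 smallest fold changes per comparison. For each other list, up to 4 called genes or else the 2 largest changes were planned. Further genes, such as Hamp and Vegfa, were named as well, and the 2 largest changes were not given for every list.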

Additional observations from a re-analysis of the deposited data

Results flagged for a closer look

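In groups of 4 to 10 mice, the highest or lowest mouse was compared with its nearest neighbour relative to the group's range, for 43 genes and 3 scores. This found 14 of 230 groups with a mouse far from the others, where chance gives about 1 in 20. DEN 4 held 6 of them: Flt4 at 5.28 FPKM, Pecam1 at 5.25 FPKM, Emcn at 2.78 FPKM, Robo4 at 7.51 FPKM and Sox18 at 8.89 FPKM were far above the other DEN mice, and its gap between sinusoidal and general vessel genes, -0.84, was far below theirs.

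DEN_CAF_SOR 3 lay far below its group for Adgrl4, an adhesion G protein-coupled receptor (0.853 FPKM), and for the mean log2(FPKM + 1) of the sinusoidal genes (1.75) and of the general vessel genes (1.51). Lyve1 was far above the rest in Untreated 5 (2.31 FPKM) and in DEN 5 (3.73 FPKM). Fli1, an ETS transcription factor, was far above the rest in Untreated 3 (1.36 FPKM). Within the sorafenib group, Sox18 was high in DEN_SOR 2 (2.33 FPKM) and Sox17, a related factor, in DEN_SOR 3 (0.608 FPKM).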

How the results depend on the processing

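Over 72 fold changes of named members, 1711 of 1792 values under an alternative kept their direction and their side of the threshold, 41 changed sign, 26 lost and 14 gained a call. For DEN_SOR against Untreated, 2 members called became 0 with no filter, 5 with TMM library sizes, 1 with totals free of mitochondrial reads, 10 by DESeq2, 4 with a batch term for libraries 3 and 4, 0 without the Xist libraries (limma and edgeR), 0 in libraries 3 and 4, 0 with only the groups compared, and 0 to 4 when a mouse was left out. Of all 12741 genes, the main fit called 334 and DESeq2 1195. TMM library sizes gave 487, totals free of mitochondrial reads 561 and the batch term 536. Elsewhere a count of 0 became 1 (DESeq2) or 2 (libraries 3 and 4) for DEN against Untreated, 2 (DESeq2) or 0 to 1 (a mouse left out) for DEN_SOR against DEN, 1 (edgeR, DESeq2) for DEN_CAF and 2 (DESeq2) for DEN_CAF_SOR against Untreated. The cause was not tested.

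With the replicate number as a block, 0 members were called in DEN_SOR against Untreated. Same-numbered mice of 2 groups correlated from -0.282 to 0.535 over 46 pairs, 25 of them over 0.1. The median was 0.134 for same-numbered mice and -0.0264 for other pairs, and 8 of 25 libraries correlated best with their own number. Whether the numbers reflect a shared feature of the mice was not tested. With 9 sinusoidal genes (no ligands or genes shared with macrophages), the class gap was 0.0714 for DEN_CAF_SOR minus DEN_SOR and -0.19 for DEN_SOR minus Untreated.

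Signs changed in these cases. Within libraries 3 and 4, DEN_SOR against DEN gave Bmp2 0.38, Clec4g 0.40, Mrc1 0.12, Rspo3 0.11, Stab2 0.24 and Wnt2 0.47; DEN_SOR against Untreated gave Bmp6 -0.37; Pecam1 was -0.0711 in DEN_CAF and -0.0111 in DEN_CAF_SOR against Untreated; Stab2 was -0.34 in DEN_CAF_SOR against DEN_SOR; and the interaction was -0.30 for Rspo3 and -0.65 for Stab2. Within the other libraries Bmp2 was 0.0157 in DEN against Untreated; DEN_CAF against DEN gave Bmp2 -0.0857, Bmp6 -0.0584 and Wnt2 -0.21; Nos3 was 0.0261 in DEN_SOR and Ptprb 0.16 in DEN_CAF_SOR against Untreated; Robo4 was 0.13 in DEN_CAF_SOR against DEN; and DEN_CAF_SOR against DEN_CAF gave Stab2 0.0297 and Tie1 0.20. Without the Xist libraries, Fcgr2b was 0.13 (0.0461 by edgeR) in DEN and 0.0350 in DEN_CAF, Nos3 0.12 (0.12 by edgeR) in DEN_SOR and Ptprb 0.20 (0.14 by edgeR) in DEN_CAF_SOR, all against Untreated. Without mitochondrial reads in the total, Nos3 was 0.00154 in DEN_SOR against Untreated. Leaving out a mouse gave -0.0862 to 0.21 for Bmp2, -0.0597 to 0.10 for Bmp6 and -0.0703 to 0.21 for Wnt2 in DEN_CAF against DEN, -0.0923 to 0.46 for Bmp6 and -0.15 to 0.0325 for Nos3 in DEN_SOR against Untreated, and -0.25 to 0.0406 for Sox18 and -0.15 to 0.14 for Tie1 in DEN_CAF_SOR against DEN_CAF. The splits by library number, counts against the other 5 DEN mice, the totals free of mitochondrial reads and edgeR without the Xist libraries were chosen after seeing the data. Low counts, down to 5 reads for Wnt2, limit single values.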
